A study of Mus musculus with 4 samples.

Results

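Interferon-induced gene families were followed in colon tumours of AOM/DSS mice, in which the carcinogen azoxymethane and the colitis-inducing chemical dextran sulfate sodium together give rise to tumours in an inflamed colon. CAGE, or cap analysis of gene expression, counts sequence tags from the capped 5′ ends of transcripts in their RNA. Tumours came from mice given an antibody against MAdCAM-1, an adhesion molecule of gut vessels (libraries MAdCAM1 1 and MAdCAM1 2), and from mice given an IgG antibody as control (IgG 1 and IgG 2). Every mouse carried AOM/DSS tumours, 2 mice per group gave 1 library each, and strain, age, antibody dose and the number of tumours pooled are not given in the labels. Members were chosen by gene symbol, with earlier results of these libraries known. The symbols start with Ifit, Ifitm, Oas, Gbp plus a digit, Irgm, Iigp, Igtp, Ifi or Irf plus a digit, or with the name of a further interferon-induced effector such as Isg15, Usp18 or Mx2. In all, 66 of the 14979 genes in the table matched, and 62 of them had enough tags to be tested. By textbook regulation 35 members were linked to type I interferon and 15 to type II, and 16 belonged to neither class.

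Interferons are secreted alarm signals. Type I interferons (the alpha and beta forms) act on nearly all cells through the receptor Ifnar1/Ifnar2, and the kinases Jak1 and Tyk2 then assemble a complex with Stat2 and Irf9 that binds the interferon-stimulated response element (ISRE) of antiviral genes. Interferon-lambda, which acts mainly on epithelium through Ifnlr1 and Il10rb, uses the same complex, so type I linked genes do not tell these ligands apart. Type II interferon (interferon-gamma), made mainly by T and NK cells, signals through Ifngr1/Ifngr2, Jak1 and Jak2. Its signal is read at the gamma-activated site (GAS), induces Irf1, and drives the large GTPases that attack microbes inside cells. Many genes respond to both kinds of interferon, so the classes mark the better known inducer and not an exclusive one.

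The elements read by these pathways stand in the promoters, and 6 promoters are printed because their genes stand for the classes described further on. Each is the 250 bases before the annotated start of the canonical transcript (GENCODE M39, GRCm39), written 5′ to 3′ along the gene. Capitals mark an ISRE core, searched as GAAANNGAAA or TTTCNNTTTC so that both strands are covered, or a GAS core, searched as TTCNNNGAA, which reads the same on both strands. Isg15 and Ifit1 are antiviral genes, Usp18 a brake on the type I receptor, Irf1 and Gbp7 interferon-gamma targets, and Ifitm1 a membrane protein with neither core in this window.
Isg15 (chr4:156285304-156285553, strand -): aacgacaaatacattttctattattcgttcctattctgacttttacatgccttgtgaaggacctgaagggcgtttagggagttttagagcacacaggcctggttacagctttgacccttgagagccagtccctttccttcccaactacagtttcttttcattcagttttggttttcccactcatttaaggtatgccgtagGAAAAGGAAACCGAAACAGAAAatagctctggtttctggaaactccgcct
Ifit1 (chr19:34618021-34618270, strand +): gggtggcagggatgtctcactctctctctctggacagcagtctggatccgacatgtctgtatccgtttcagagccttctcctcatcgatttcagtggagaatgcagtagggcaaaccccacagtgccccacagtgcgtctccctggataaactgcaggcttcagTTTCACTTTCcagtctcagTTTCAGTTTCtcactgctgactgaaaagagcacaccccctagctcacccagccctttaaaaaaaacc
Usp18 (chr6:121222607-121222856, strand +): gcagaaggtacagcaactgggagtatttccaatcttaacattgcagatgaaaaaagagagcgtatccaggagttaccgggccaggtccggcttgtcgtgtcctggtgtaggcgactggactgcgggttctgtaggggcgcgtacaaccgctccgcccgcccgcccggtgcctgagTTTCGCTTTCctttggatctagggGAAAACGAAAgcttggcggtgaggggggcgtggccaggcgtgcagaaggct
Irf1 (chr11:53660591-53660840, strand +): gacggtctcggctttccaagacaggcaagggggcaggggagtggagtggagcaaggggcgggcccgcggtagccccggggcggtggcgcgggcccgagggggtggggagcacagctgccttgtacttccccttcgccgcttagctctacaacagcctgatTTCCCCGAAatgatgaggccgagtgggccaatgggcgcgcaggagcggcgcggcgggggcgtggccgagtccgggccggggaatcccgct
Gbp7 (chr3:142235794-142236043, strand +): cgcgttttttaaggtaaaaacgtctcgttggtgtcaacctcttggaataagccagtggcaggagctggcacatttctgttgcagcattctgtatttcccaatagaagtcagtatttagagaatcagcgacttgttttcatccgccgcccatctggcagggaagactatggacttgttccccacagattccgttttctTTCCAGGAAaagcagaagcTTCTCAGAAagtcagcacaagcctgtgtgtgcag
Ifitm1 (chr7:140547698-140547947, strand +): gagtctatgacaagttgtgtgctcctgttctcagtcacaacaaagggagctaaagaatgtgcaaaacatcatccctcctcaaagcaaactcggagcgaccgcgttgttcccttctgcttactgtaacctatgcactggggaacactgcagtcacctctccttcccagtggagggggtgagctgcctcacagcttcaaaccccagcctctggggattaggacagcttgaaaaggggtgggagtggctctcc

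ISRE cores were frequent among the type I linked promoters. Of 35 such windows 18 held a core (51.4%), against 3 of 15 type II linked windows (20%) and 723 of 21770 protein-coding promoters (3.32%). GAS cores stood in 6 of 15 type II linked windows (40%) and in 4 of 35 type I linked ones (11.4%), against 7.70% of all promoters. By family, 5 of 6 Ifit, 5 of 8 Oas, 3 of 3 PYHIN and 3 of 3 immunity-related GTPase windows held an ISRE core. Windows of Ifit1 and Ifit1bl2 overlap on opposite strands, as do those of Oas1b and Oas1c. The cores of each pair are the same sites, counted for both genes, so these windows are not separate promoters. Among 9 Gbp windows 0 held an ISRE core and 2 a GAS core, and among 5 Ifitm windows 0 held either. Bases of overlapping matches count for both motifs, as in Bst2. A match is a letter pattern and not a shown binding site, and whether the deposited tags start at these annotated starts was not examined.

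No interferon family gene was called between the antibody groups. Levels are in CPM, that is tags relative to the TMM-adjusted library total, fold changes are MAdCAM1 over IgG on the log2 scale, and a call is an adjusted p under 0.05. The edgeR quasi-likelihood test called 0 of 62 tested members, as it called 0 of 14331 genes in all (0%), and the smallest adjusted p of a member was 0.665. Unadjusted, 3 members were higher by that test at p under 0.05 (Ifi30, Ifi27l2b and Oas1a; 5.09% of all genes) and 3 lower (Ifitm1, Ifitm6 and Ifitm3; 1.82% of all genes). DESeq2 called 1 member lower, Ifitm1 (0.14% of all genes), and 0 higher (1.53%). The edgeR exact test called 0 members, against 1.06% of all genes higher and 0.0628% lower, and limma-voom called 0 in either direction (0% of all genes). Both MAdCAM1 libraries lay above both IgG libraries for 5 members (8.06%, against 19.7% of all tested genes), and below both for 9 (14.5%, against 18.7%). The other 48 overlapped between the groups, as did 8832 of all 14331 tested genes. The median fold change on the log2 scale was 0.67 over type I linked members and 0.13 over type II linked ones, but −0.23 and −0.97 without MAdCAM1 2, and −0.21 for type II without IgG 2.

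**Figure D1:**
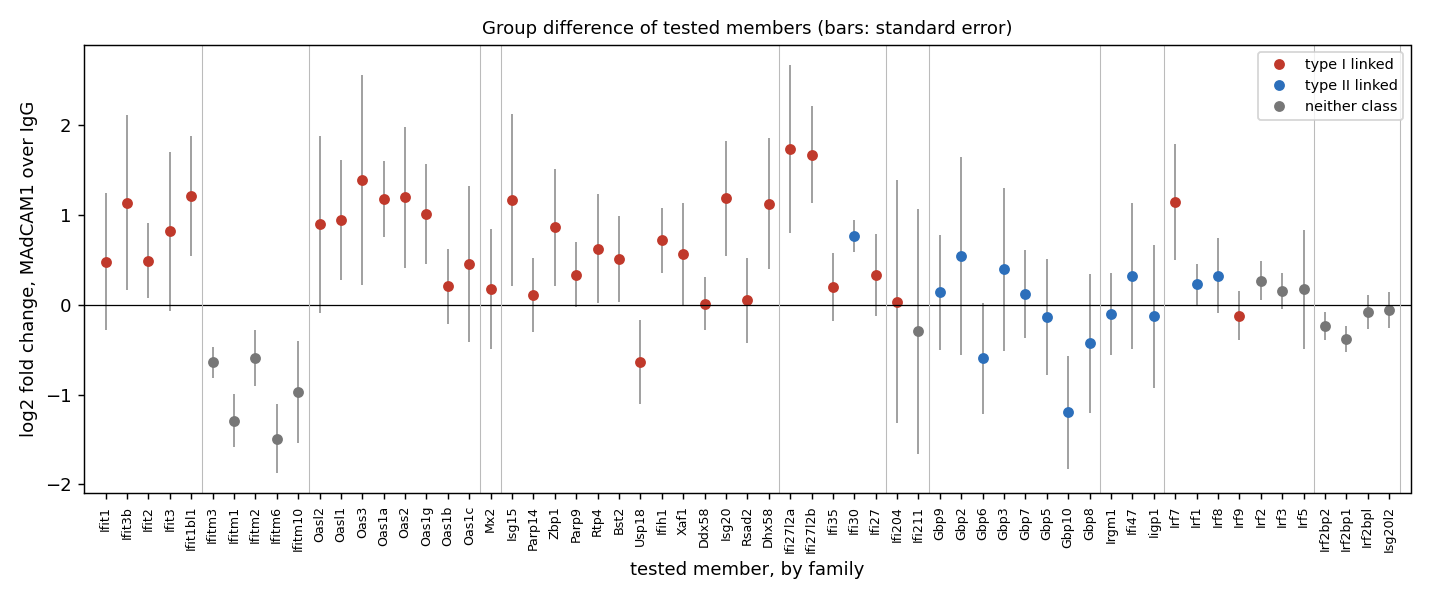
Log2 fold change of MAdCAM1 over IgG (y axis) for 61 tested members (x axis, by family), with bars for 1 standard error and colours for the class. Most type I linked points lie above 0, type II linked points lie on either side of it, and all 5 Ifitm points lie below it.

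The Oas family, named for oligoadenylate synthetases that sense viral RNA and switch on RNase L, had positive fold changes in 8 of 8 members. Their median was 0.98, but 7 of the 8 overlapped between the groups, as did 8832 of all 14331 tested genes. In GRCm39, Oas1a (chromosome 5, 121031070 to 121046449) was found at 15.1 and 28.4 CPM in MAdCAM1 1 and 2, and at 11.7 and 7.48 CPM in IgG 1 and 2. It was the member whose groups did not overlap, with a log2 fold change of 1.18 (SE 0.43; edgeR adjusted p = 0.718, with 2 mice per group). Oas3 (chromosome 5, 120891163 to 120915729) stood at 6.79 and 51.8 CPM in MAdCAM1 and at 17.7 and 4.58 CPM in IgG. MAdCAM1 2 was far above the other 3 libraries, and MAdCAM1 1 lay between the IgG mice (log2 fold change 1.39, SE 1.17; edgeR adjusted p = 0.857). Oasl2 stood at 23.9 and 118 CPM in MAdCAM1 and 59.2 and 16.9 CPM in IgG. Oasl1, which in mice restrains translation of Irf7, stood at 19.9 and 49.5 CPM in MAdCAM1 and 26.1 and 10.02 CPM in IgG. For all 8 genes MAdCAM1 2 was the highest library, and for 7 of them IgG 2 was the lowest. The other 4 members, Oas1b, Oas1c, Oas1g and Oas2, had fold changes between 0.21 and 1.20. The Oas1 genes are close relatives, so tags may have been shared among them.

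The Ifit genes, clustered on chromosome 19 (34527932 to 34639833), encode RNA-binding proteins that block translation of viral messages. Ifit1 stood at 13.2 and 55.0 CPM in MAdCAM1 and at 31.9 and 16.9 CPM in IgG, so that the MAdCAM1 mice were the lowest and the highest of the 4 (log2 fold change 0.48, SE 0.77; edgeR adjusted p = 0.934). Ifit3b followed the same order at 4.55 and 27.1 CPM in MAdCAM1 and 10.1 and 4.21 CPM in IgG, except that IgG 2 was just below MAdCAM1 1. Ifit3 stood at 1.54 and 8.55 CPM in MAdCAM1 and 3.36 and 2.35 CPM in IgG. Ifit2 ran differently within IgG, at 5.18 and 8.68 CPM in MAdCAM1 and 4.04 and 5.81 CPM in IgG. Ifit1bl1 was higher in both MAdCAM1 libraries, at 1.89 and 4.66 CPM against 1.88 and 0.928 CPM in IgG, although MAdCAM1 1 and IgG 1 all but coincided. Ifit1bl2 had 2 and 3 tags in MAdCAM1 and 2 and 0 tags in IgG and was too low to be tested, and its span overlaps Ifit1 on the opposite strand. Over the 5 tested members the median was 0.82 on the log2 scale, and 1 of 5 was higher in both MAdCAM1 libraries (20%, against 19.7% of all tested genes).

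Single antiviral effectors and RNA sensors showed the same spread between mice. Isg15 (chromosome 4, 156283883 to 156285303), a ubiquitin-like protein joined to other proteins during antiviral responses, stood at 59.4 and 318 CPM in MAdCAM1 and at 123 and 44.3 CPM in IgG. Its levels differed 5.36-fold between the MAdCAM1 mice and 2.78-fold between the IgG mice, while the groups differed by 2.25-fold (log2 fold change 1.17, SE 0.96; edgeR adjusted p = 0.857). Zbp1, a sensor of left-handed nucleic acids that can start necroptosis, stood at 70.2 and 174 CPM in MAdCAM1 and 95.96 and 38.1 CPM in IgG. Ifih1 (MDA5), a cytosolic sensor of viral RNA, was the 1 of 13 effectors higher in both MAdCAM1 libraries (7.69%, against 19.7% of all tested genes). It stood at 27.4 and 47.3 CPM in MAdCAM1 and at 26.98 and 18.5 CPM in IgG, so that MAdCAM1 1 and IgG 1 all but coincided (log2 fold change 0.72, SE 0.36; edgeR adjusted p = 0.760). Ddx58 (RIG-I), the related sensor, overlapped at 20.8 and 34.7 CPM in MAdCAM1 and 28.9 and 26.04 CPM in IgG. The ADP-ribosylating enzyme Parp14 had 72.5 and 133 CPM in MAdCAM1 and 119 and 71.6 CPM in IgG, and its partner Parp9 had 72.7 and 125 CPM in MAdCAM1 and 94.3 and 62.5 CPM in IgG. Fold changes of the remaining overlapping effectors, Rtp4, Bst2, Xaf1, Isg20, Rsad2 and Dhx58, lay between 0.05 and 1.19.

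Usp18 (chromosome 6, 121222848 to 121247877), which strips Isg15 from proteins and blocks signalling at Ifnar2, was the type I linked gene that was lower in both MAdCAM1 libraries. Of 34 tested type I linked members, 1 was lower in both (2.94%, against 18.7% of all tested genes) and 4 were higher in both (11.8%, against 19.7%). Usp18 stood at 18.2 and 44.8 CPM in MAdCAM1 and at 45.9 and 52.4 CPM in IgG, with MAdCAM1 2 close to IgG 1. On the log2 scale the difference was −0.64 (SE 0.47; edgeR adjusted p = 0.835). Its promoter, printed above, holds 2 ISRE cores like that of Ifit1, whose fold change was 0.48. Mx2, a dynamin-like antiviral GTPase, was near the lower limit of testing at 10 and 28 tags in MAdCAM1 and 25 and 13 tags in IgG.

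Among the other Ifi genes 2 of 5 were higher in both MAdCAM1 libraries, as were 19.7% of all tested genes. Ifi30 (chromosome 8, 71215403 to 71219334) encodes the lysosomal thiol reductase that unfolds antigens for MHC class II. It stood at 41.9 and 51.4 CPM in MAdCAM1 and at 28.9 and 25.98 CPM in IgG (log2 fold change 0.77, SE 0.18; edgeR adjusted p = 0.671), a gap wider than the spread within either group. Ifi27l2b (chromosome 12, 103417157 to 103423482) stood at 119 and 229.8 CPM in MAdCAM1 and at 75.5 and 33.6 CPM in IgG (log2 fold change 1.68, SE 0.54; edgeR adjusted p = 0.691). Its neighbour Ifi27l2a, of the same ISG12 family of mitochondrial proteins, stood at 66.6 and 458 CPM in MAdCAM1 and at 84.3 and 73.4 CPM in IgG, so that its fold change of 1.73 rested on MAdCAM1 2. Ifi27, from the same cluster, overlapped with a log2 fold change of 0.33. Its annotated span overlaps that of Ifi27l2a on the opposite strand, and the sources used here do not say whether strand was used in counting. The counts of Ifi27 and Ifi27l2a differed, but some of their tags may have been shared. Close relatives such as Ifi27l2a and Ifi27l2b may also share tags. Ifi35 overlapped at 44.4 and 80.6 CPM in MAdCAM1 and 65.2 and 43.8 CPM in IgG. The PYHIN genes Ifi204 and Ifi211, relatives of a human sensor of DNA, were scarce in MAdCAM1 1. Ifi204 had 7 and 128 tags in MAdCAM1 and 116 and 32 tags in IgG, and Ifi211 had 7 and 107 tags in MAdCAM1 and 131 and 27 tags in IgG. Ifi203 had 1 and 13 tags in MAdCAM1 and 3 and 6 tags in IgG and was not tested.

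Among genes linked to type II interferon the antibody groups overlapped in 12 of 14 tested members, against 8832 of all 14331 tested genes. The Gbp genes encode guanylate-binding proteins, GTPases that coat and break open the vacuoles of intracellular microbes. Gbp2 (chromosome 3, 142326349 to 142343779) stood at 33.3 and 182 CPM in MAdCAM1 and at 122 and 25.7 CPM in IgG, a 5.47-fold difference between the MAdCAM1 mice and a 4.73-fold one between the IgG mice. The difference between the groups was smaller than either (log2 fold change 0.54, SE 1.10; edgeR adjusted p = 0.950). Gbp9 stood at 46.9 and 155 CPM in MAdCAM1 and 114 and 69.95 CPM in IgG, and Gbp3 at 10.7 and 42.9 CPM in MAdCAM1 and 31.6 and 9.15 CPM in IgG. Gbp7, whose promoter is printed above, followed the same pattern at 14.5 and 34.3 CPM in MAdCAM1 and 26.9 and 17.998 CPM in IgG (log2 fold change 0.12, SE 0.49). Gbp6 (chromosome 5, 105418568 to 105443751) stood at 29.3 and 89.3 CPM in MAdCAM1 and at 114 and 65.4 CPM in IgG (log2 fold change −0.60, SE 0.62). Gbp10, next to it, was the type II linked gene lower in both MAdCAM1 libraries, at 2.94 and 7.51 CPM against 16.1 and 7.92 CPM in IgG (log2 fold change −1.20, SE 0.63; edgeR adjusted p = 0.763).

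The Gbp genes sit in clusters on different chromosomes, and their fold changes were listed by cluster after the values were seen. The 4 tested genes on chromosome 3 (Gbp2, Gbp3, Gbp5 and Gbp7) had a median of 0.26 on the log2 scale, and 3 of 4 were positive. The 4 on chromosome 5 (Gbp6, Gbp8, Gbp9 and Gbp10) had a median of −0.51, with 1 of 4 positive. In both clusters MAdCAM1 2 was above MAdCAM1 1 for every tested gene, by medians of 3.56-fold on chromosome 3 and 2.65-fold on chromosome 5. Gbp4 had 3 and 2 tags in MAdCAM1 and 14 and 7 tags in IgG, too few to be tested. The annotated spans of Gbp4, Gbp8 and Gbp9 overlap, so how tags were shared among them is uncertain.

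Immunity-related GTPases, which act on the same vacuoles, overlapped in 3 of 3 members, against 8832 of all 14331 tested genes. Irgm1 stood at 59.2 and 128 CPM in MAdCAM1 and 123 and 77.9 CPM in IgG (log2 fold change −0.10, SE 0.46; edgeR adjusted p = 0.980). Iigp1 stood at 10.8 and 45.3 CPM in MAdCAM1 and 41.9 and 19.4 CPM in IgG, and Ifi47 at 25.3 and 98.9 CPM in MAdCAM1 and 72.1 and 27.5 CPM in IgG. In all 3 the lowest library was MAdCAM1 1 and the highest MAdCAM1 2. Tags of Ifi47 were identical to those of Olfr56 in all 4 libraries, those of Gbp6 to Gm43302 and those of Ifitm2 to Gm45717, so each of these values may belong to either gene. Igtp, Irgm2, Mx1 and Cmpk2 were not analysed here.

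Of the Ifitm genes, 5 of 5 stood lower in both MAdCAM1 mice than in either IgG mouse, as 18.7% of all tested genes did. The best known of them, such as Ifitm1 and Ifitm3, encode small membrane proteins that hinder the entry of enveloped viruses. These respond to both kinds of interferon and are described as raised in colorectal tumours. Ifitm1 (chromosome 7, 140546316 to 140549743) stood at 288 and 469 CPM in MAdCAM1 and at 857 and 996 CPM in IgG. The difference of −1.29 on the log2 scale (SE 0.29) was not called by edgeR's quasi-likelihood test (adjusted p = 0.665) or by its exact test (adjusted p = 0.0604), and was called by DESeq2 (adjusted p = 0.00710). Ifitm3 (chromosome 7, 140589499 to 140591282) stood at 1427 and 1392 CPM in MAdCAM1 and at 1988 and 2413 CPM in IgG, with a gap between the groups wider than the spread within them (log2 fold change −0.64, SE 0.17; edgeR adjusted p = 0.691). Ifitm2 stood at 555 and 463 CPM in MAdCAM1 and 569 and 965 CPM in IgG, where MAdCAM1 1 and IgG 1 were close together. Ifitm6, known from myeloid cells in mice, stood at 3.15 and 4.47 CPM in MAdCAM1 and 13.03 and 8.41 CPM in IgG (log2 fold change −1.49, SE 0.38; edgeR adjusted p = 0.691). Ifitm10, which lies apart from the other 4 on the same chromosome, stood at 1.12 and 2.27 CPM in MAdCAM1 and 4.27 and 2.41 CPM in IgG. Epithelial markers differed between the same groups in the other direction, with 7 of 8 higher in both MAdCAM1 libraries (87.5%, against 19.7% of all tested genes). By edgeR's quasi-likelihood test 6 of 8 were higher at an unadjusted p under 0.05 (5.09% of all genes) and 0 at an adjusted p under 0.05 (0% of all genes). DESeq2 called 3 of these markers higher (1.53% of all genes) and the exact test 1 (1.06%). The part of epithelium in the Ifitm values was not tested.

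**Figure D2:**
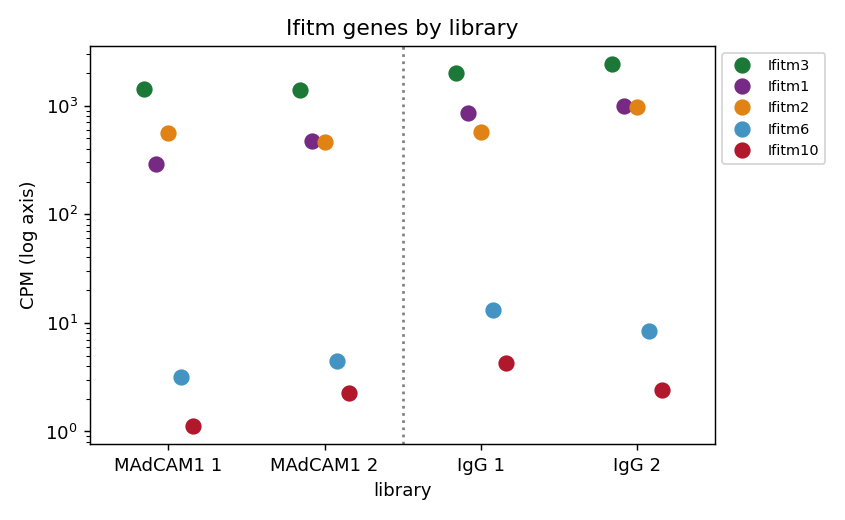
CPM on a log axis (y) of the 5 Ifitm genes in each library (x), 1 point per gene and library. For each gene both MAdCAM1 points lie below both IgG points, as for Ifitm1 at 288 and 469 against 857 and 996 CPM.

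The first 4 Ifitm genes lie within 63.1 kb of chromosome 7 (140534738 to 140597837) and are close relatives, so tags that map to several of them may have been shared between them. They made up much of the tags of the families. Ifitm tags were 53.0% and 34.3% of all member tags in MAdCAM1 1 and 2, and 53.0% and 69.7% in IgG 1 and 2. For the same reason the summed level of all members says little of the other families. In MAdCAM1 the share of all tags that fell on members was 0.413% and 0.659%, and in IgG it was 0.674% and 0.647%.

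Of the Irf transcription factors, which read and amplify the interferon signal, 8 of 8 tested genes overlapped between the groups. Over all tested genes, 8832 of 14331 overlapped. Irf7 (chromosome 7, 140842619 to 140846398), which feeds the type I response forward, stood at 95.1 and 289 CPM in MAdCAM1 and at 114 and 59.6 CPM in IgG (log2 fold change 1.15, SE 0.65; edgeR adjusted p = 0.781). Irf1, the interferon-gamma induced activator, varied less, at 115 and 157 CPM in MAdCAM1 and 129.9 and 103 CPM in IgG (log2 fold change 0.23, SE 0.23). Irf8, needed for dendritic cells and macrophages and also used by B cells, stood at 39.9 and 89.7 CPM in MAdCAM1 and 51.0 and 52.6 CPM in IgG. Irf9, the DNA-binding part of the type I complex, had a log2 fold change of −0.12, and Irf2, Irf3 and Irf5 lay between 0.16 and 0.27. Irf4, known from plasma cells and T cells, had 1 and 38 tags in MAdCAM1 and 6 and 9 tags in IgG and was not tested.

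Symbols that share a prefix without being interferon-induced served as a description of unrelated genes. Irf2bp1 and Irf2bp2, corepressors that bind Irf2, were lower in both MAdCAM1 libraries (2 of 4, or 50%, against 18.7% of all tested genes). Irf2bp1 stood at 70.9 and 61.4 CPM in MAdCAM1 and 85.1 and 87.0 CPM in IgG (log2 fold change −0.38, SE 0.14; edgeR adjusted p = 0.718). Irf2bpl and the nucleolar exonuclease Isg20l2 overlapped, with log2 fold changes of −0.08 and −0.06. The level of none of the 4 differed by more than 1.33-fold between mice of 1 group.

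**Figure D3:**
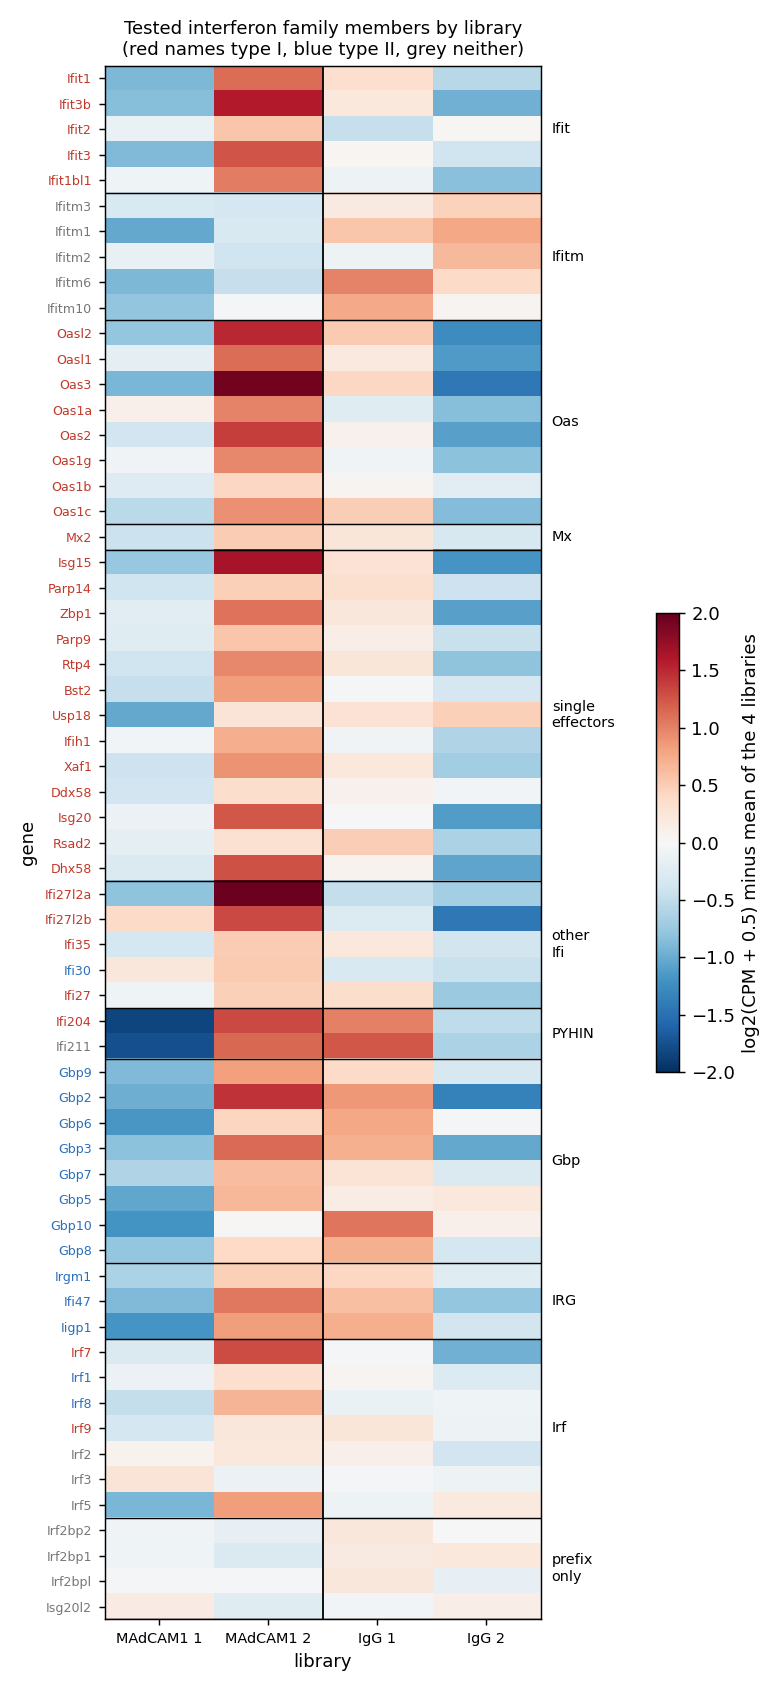
Colour gives log2(CPM + 0.5) of 61 tested members (rows, by family) in each library (columns) minus the mean of its 4 libraries. Most rows outside the Ifitm, Irf and prefix-only blocks are red in MAdCAM1 2 and blue in IgG 2 or MAdCAM1 1, and the 5 Ifitm rows are blue or white in both MAdCAM1 columns and mostly red in the IgG columns.

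Type I and type II linked genes were then set side by side in each library. The score of a class is the mean of log2(CPM + 0.5) over its tested members, 34 for type I and 14 for type II. The type I score was 3.92 and 5.32 in MAdCAM1 1 and 2, and 4.49 and 3.66 in IgG 1 and 2, and its group means were 4.62 ± 0.99 in MAdCAM1 and 4.08 ± 0.59 in IgG (SD, n = 2 each). The type II score was 4.22 and 5.64 in MAdCAM1 and 5.42 and 4.59 in IgG, with group means of 4.93 ± 1.01 in MAdCAM1 and 5.01 ± 0.58 in IgG. Each score overlapped between the groups, and the difference between the group means was smaller than the SD within MAdCAM1 for both classes. The scores moved together between mice. MAdCAM1 2 exceeded MAdCAM1 1 by 1.40 for type I and 1.43 for type II, and IgG 1 exceeded IgG 2 by 0.84 and 0.83 in the same order.

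The difference between the class scores, in contrast, did not overlap between the groups. Type I minus type II was −0.30 and −0.33 in MAdCAM1 1 and 2 and −0.92 and −0.94 in IgG 1 and 2. The mean was −0.31 ± 0.02 in MAdCAM1 and −0.93 ± 0.01 in IgG (SD, n = 2 each), and the difference between the groups was 0.62. On the linear scale, the summed CPM of type I linked genes was 2.20 and 2.49 times that of type II linked genes in MAdCAM1, and 1.51 and 1.48 times in IgG. No p is given, because the members were chosen with earlier results of these libraries known. The difference depended on the members that entered it, with 0.31 for medians in place of means and 0.40 without the Gbp genes. Oas minus Gbp alone gave −0.40 and −0.50 in MAdCAM1 and −1.39 and −1.53 in IgG. Lists of further type I and type II induced genes, which share no gene with the families, did not show it. Their difference was −0.46 and −0.70 in MAdCAM1 and −1.09 and −0.39 in IgG, with the IgG mice on either side of the MAdCAM1 mice.

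**Figure D4:**
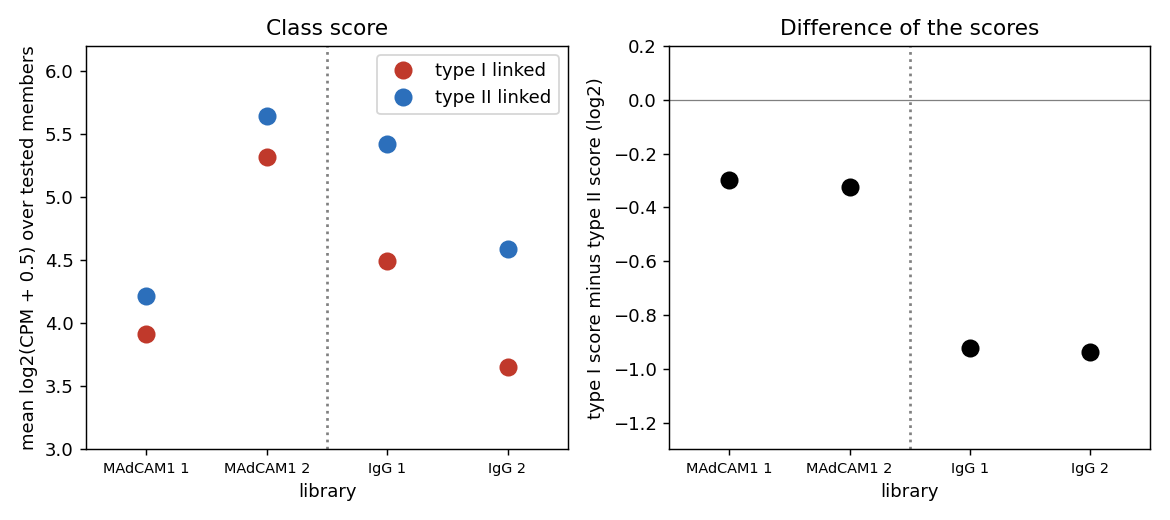
Left, mean log2(CPM + 0.5) of tested type I (red) and type II (blue) linked members in each library; right, the type I score minus the type II score. Both scores are highest in MAdCAM1 2, while the difference lies at −0.30 and −0.33 in the MAdCAM1 libraries and at −0.92 and −0.94 in the IgG libraries.

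For type I and type II linked genes, mice of the same group differed more than the groups did. Of 62 tested members, 49 (79.0%) were higher in MAdCAM1 2 than in MAdCAM1 1 and also higher in IgG 1 than in IgG 2, a pattern held by 28.6% of all tested genes. It was held by 32 of 34 type I linked and 12 of 14 type II linked members, and by 5 of 14 members of neither class. MAdCAM1 2 was the highest of the 4 libraries for 44 members, against 24.2% of all tested genes. The median type I linked gene was 2.46-fold higher in MAdCAM1 2 than in MAdCAM1 1 and 1.86-fold higher in IgG 1 than in IgG 2, and the median type II linked gene 2.65-fold and 1.68-fold. The median over all genes was 0.981-fold and 1.001-fold in the same order. In bulk tumour RNA, a change in the number of cells of a type and a change in RNA per cell cannot be told apart.

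**Figure D5:**
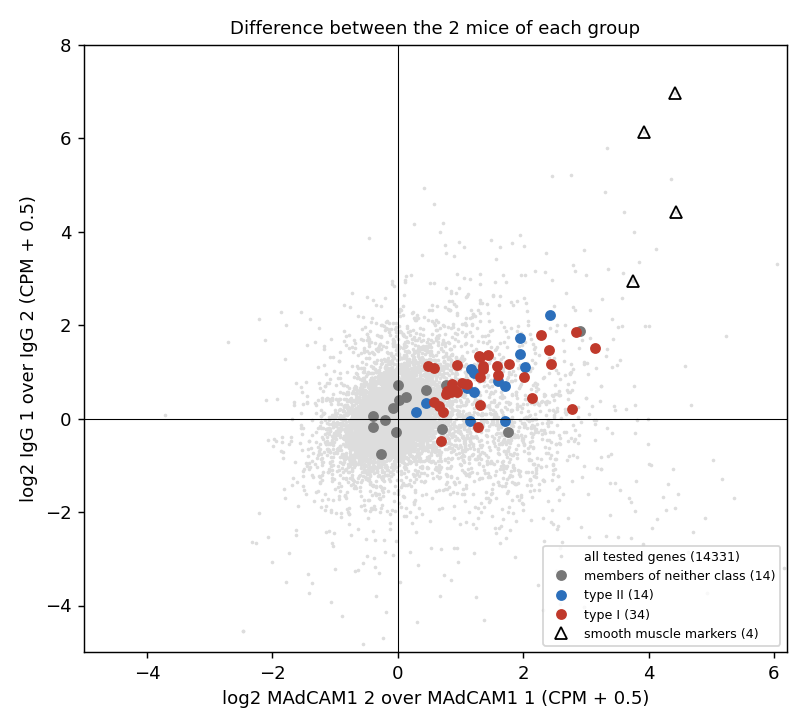
Each point is a gene, with log2 of MAdCAM1 2 over MAdCAM1 1 on the x axis and of IgG 1 over IgG 2 on the y axis; 2 of the 14331 tested genes lie outside the axes. Type I (red) and type II (blue) linked members lie mostly to the upper right, where the 4 smooth muscle markers (triangles) lie farther out.

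Markers of other tissue were set beside this pattern, and only those of smooth muscle held it in every tested gene. Smooth muscle markers held it in 4 of 4 tested genes, and their summed level was 92.7 and 1601 CPM in MAdCAM1 1 and 2 and 1415 and 82.6 CPM in IgG 1 and 2. Des, for example, stood at 18.4 and 403 CPM in MAdCAM1 and 327 and 2.10 CPM in IgG. General leukocyte markers (Ptprc, Coro1a and Laptm5) summed to 37.1 and 159 CPM in MAdCAM1 and 56.8 and 83.4 CPM in IgG, so that they too were highest in MAdCAM1 2 and lowest in MAdCAM1 1, but 0 of 3 were higher in IgG 1 than in IgG 2. Macrophage markers summed to 131 and 499 CPM in MAdCAM1 and 145 and 487 CPM in IgG (0 of 5 higher in IgG 1), and T and NK cell markers to 17.3 and 49.3 CPM in MAdCAM1 and 29.1 and 34.8 CPM in IgG (2 of 5 higher in IgG 1). B and plasma cell markers summed to 45.4 and 523 CPM in MAdCAM1 and 18.6 and 38.5 CPM in IgG (2 of 4 higher in IgG 1). Cd79a and Cd79b held the pattern, with Cd79a at 1.12 and 60.3 CPM in MAdCAM1 and 8.76 and 2.23 CPM in IgG. Jchain and Mzb1 were higher in IgG 2, with Jchain at 42.7 and 450 CPM in MAdCAM1 and 8.14 and 35.4 CPM in IgG. Fibroblast markers summed to 422 and 1495 CPM in MAdCAM1 and 389.97 and 1151 CPM in IgG (0 of 5 higher in IgG 1). Epithelial markers, the check of the labelled tissue, were present in every library, with 8937 and 7736 CPM in MAdCAM1 and 5740 and 5008 CPM in IgG, and 7 of 8 were higher in both MAdCAM1 libraries (87.5%, against 19.7% of all tested genes). The part of these cell types in the interferon values was not tested. Siglech, which defines plasmacytoid dendritic cells, and the further T and NK markers Cd8a, Nkg7 and Ncr1 were not analysed here.

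Receptors and transducers of the pathway were not called either. Of 6 receptor genes, 0 passed edgeR's quasi-likelihood test. In both MAdCAM1 libraries 2 were higher (19.7% of all tested genes were) and 0 were lower (18.7% of all tested genes were). Ifngr1, the ligand-binding chain for interferon-gamma, stood at 195 and 292 CPM in MAdCAM1 and 164 and 169 CPM in IgG (log2 fold change 0.55, SE 0.24; edgeR adjusted p = 0.752). Il10rb, the chain shared by the receptors for interferon-lambda and interleukin-10, stood at 81.4 and 85.2 CPM in MAdCAM1 and 61.8 and 63.8 CPM in IgG (log2 fold change 0.41, SE 0.13; edgeR adjusted p = 0.691). Ifnar1, Ifnar2, Ifngr2 and Ifnlr1 overlapped, with fold changes between −0.22 and 0.01. Of 12 transducers and brakes that test called 0. Tyk2 was higher in both MAdCAM1 libraries (8.33%, against 19.7% of all tested genes). Another 3, Socs1, Usp18 and Pias1, were lower in both (25%, against 18.7%). Stat2, a part of the type I complex, overlapped at 28.5 and 39.8 CPM in MAdCAM1 and 29.25 and 20.04 CPM in IgG. Socs1, a feedback inhibitor of Jak kinases, was lower in both MAdCAM1 libraries at 37.7 and 38.0 CPM against 45.8 and 51.8 CPM in IgG (log2 fold change −0.36, SE 0.15; edgeR adjusted p = 0.731). The interferon genes themselves were not analysed here.

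Interferon-induced genes outside the families showed the spread between mice again. By edgeR's quasi-likelihood test 0 of 16 type I induced genes and 0 of 20 type II induced genes were called. In type I induced genes 2 of 16 stood above the IgG range in both MAdCAM1 libraries and 0 below it, against 19.7% and 18.7% of all tested genes, with a median of 0.43 on the log2 scale. Among type II induced genes 1 of 20 stood above it and 3 below it, with a median of 0.33. Over all tested genes the median was −0.0012. Cxcl10, a chemokine that draws T cells, was lower in both MAdCAM1 libraries at 19.7 and 32.7 CPM against 62.4 and 46.6 CPM in IgG (log2 fold change −1.06, SE 0.32; edgeR adjusted p = 0.691). Cxcl9, its close relative, overlapped at 10.99 and 54.1 CPM in MAdCAM1 and 48.4 and 18.4 CPM in IgG. Ido1, the tryptophan-degrading enzyme, spread widely within IgG, at 10.3 and 58.6 CPM in MAdCAM1 and 90.4 and 1.98 CPM in IgG. Among 14 tested sensors of nucleic acids, 4 were higher in both MAdCAM1 libraries, namely Ifih1, Ikbke, Tlr3 and Ticam1, and 0 were lower in both. These are 28.6% and 0%, against the same shares of all tested genes, 19.7% and 18.7%. Tlr3, an endosomal RNA sensor, stood at 12.5 and 14.4 CPM in MAdCAM1 and 10.6 and 7.67 CPM in IgG (log2 fold change 0.55, SE 0.27; edgeR adjusted p = 0.760).

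Members were also grouped by promoter motif. On the log2 scale the median change was 0.47 for the 22 tested members with an ISRE core, 0.23 for the 7 with a GAS core alone and 0.16 for the 33 with neither core. Between mice, the median member with an ISRE core was 2.64-fold higher in MAdCAM1 2 than in MAdCAM1 1 and 2.12-fold higher in IgG 1 than in IgG 2. For members with neither core these medians were 1.83-fold and 1.52-fold. The 7 members with a GAS core and no ISRE core had 1.86-fold within MAdCAM1 and 0.978-fold within IgG. These are counts over few genes, several of which are neighbours in 1 cluster, and the difference between the motif groups was not tested.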

How the data were processed

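RNA of AOM/DSS colon tumours was read by CAGE in 4 libraries. Per the labels' protocols, the GRCm39 alignment used BWA 0.7.17, followed by HISAT2 2.0.5 for what BWA left, and RECLU clustering. Faint clusters (below 0.1 CPM), long ones and those with a discovery rate (IDR) from 0.1 up were dropped, and bedtools 2.12.0 kept regions with 90% replicate overlap. Discarding low or irreproducible clusters can remove weakly transcribed members. The authors deposited raw tag counts per gene; the step from clusters to genes is not given in the sources used here. Totals were 14850923 and 15895228 tags in MAdCAM1 1 and 2 and 16891234 and 15727936 in IgG 1 and 2, so that 1 tag equals 0.0569 to 0.0700 CPM.

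Genes were filtered with filterByExpr (14331 kept), scaled by TMM and tested with edgeR 4.0.16 (robust quasi-likelihood F test, Benjamini-Hochberg adjustment over all genes) under R 4.3.3. limma 3.58.1 and DESeq2 1.42.0 gave alternatives. The tests were tested on simulated data. With 2 mice per group, p-values rest partly on the spread of other genes. Promoter windows were read from GRCm39 at GENCODE M39 canonical starts. Scores used a pseudocount of 0.5 CPM.

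Members and lists were chosen with earlier results of these data known. Genes named were, in each family, the 4 tested members of highest mean CPM and up to 3 per direction of smallest p without overlap between groups, and up to 4 per pathway list by p. Others named, such as Ifitm10, Ddx58, Gbp7, Irf9, Cxcl9, Ido1 and the marker Des, were chosen after their values were seen. Results for 2 genes are not reported here.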

Additional observations from a re-analysis of the deposited data

How the results depend on the processing

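The groups of 2 mice and the differences between mice of 1 group limit every comparison here. The quasi-likelihood test called 0 members and 0 genes under every scaling, filter, replicate block and left-out library. edgeR's exact test called 161 genes and 0 members, DESeq2 called 239 genes and 1 member, and limma-voom called 0 of either. Members higher in both MAdCAM1 libraries numbered 3 with library size scaling, against 5, and 5 to 46 with 1 library left out; members lower in both numbered 9 to 30. A group of 1 library overlaps less often, and 33.1% to 35.1% of all genes were then higher and 32.5% to 38.7% lower. Without MAdCAM1 1, 46 of 65 members were higher (all genes 34.2%), and without MAdCAM1 2, 30 of 63 were lower (all genes 32.5%). The median log2 fold change ran from −0.23 to 1.20 for type I linked and from −0.97 to 0.56 for type II linked members, each lowest without MAdCAM1 2, which turned both directions; without IgG 2 the type II median was −0.21. The cause was not tested.

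The difference between the class scores, 0.62, was 0.65 without a filter and 0.62 to 0.70 with 1 library left out. Alternatives chosen after the data were seen gave 0.31 with medians, 0.40 without Gbp, 0.55 without Oas, 0.64 without the other Ifi genes, 0.67 without Irf and 0.66 for members of mean CPM at least 5. The MAdCAM1 libraries stayed above the IgG libraries in these 6.

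Of 42 named members, 19 kept their direction under every alternative, among them Ifitm1, Ifitm2, Ifitm3 and Ifitm6, and 23 changed it when 1 library was left out. Their log2 fold changes with 1 library left out ran as follows: Ifit1 −0.89 to 1.17, Ifit3b −0.66 to 1.91, Ifit3 −0.89 to 1.58, Oasl2 −0.67 to 2.06, Oas3 −0.71 to 2.67, Mx2 −0.67 to 0.69, Isg15 −0.50 to 2.08, Parp14 −0.40 to 0.51, Parp9 −0.11 to 0.68, Ifi27l2a −0.24 to 2.54, Ifi35 −0.30 to 0.56, Ifi204 −3.11 to 1.15, Ifi211 −3.20 to 1.15, Gbp9 −0.97 to 0.76, Gbp2 −1.15 to 2.06, Gbp3 −0.93 to 1.54, Irgm1 −0.76 to 0.35, Ifi47 −0.97 to 1.17, Iigp1 −1.51 to 0.56, Irf1 −0.014 to 0.43, Irf8 −0.38 to 0.79, Irf2bpl −0.28 to 0.12, Isg20l2 −0.28 to 0.13. Ifi204 was also −0.061 with library size scaling, −0.63 with the replicate block and −0.78 by limma-voom, and Gbp9 −0.061 with the block and −0.061 by limma-voom. Scaling by library size shifted the median of all genes to −0.10.

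Replicate numbers belong to different mice. Deviations of same-numbered libraries from their group means correlated at −0.15 across genes. With the replicate block the class medians were 0.53 and −0.019 in the order type I, type II, and with the crossed block, chosen after the data were seen, 0 genes and 0 members were called.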
